A study of Mus musculus with 18 samples.

Results

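The IFIT family consists of the interferon-induced proteins with tetratricopeptide repeats. The mouse genes examined were Ifit1, Ifit2, Ifit3, Ifit3b, Ifit1bl1 and Ifit1bl2. A gene in the deposited table was taken as a member when its symbol, split where an entry joins several names, was one of these 6 names. The rule found 6 members among 62197 genes, of which 25177 carry a symbol. All 6 passed the filter on low values.

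IFIT genes are targets of type I interferon, which signals through the receptor subunits Ifnar1 and Ifnar2 to transcription factors that include Stat2 and Irf9. They can also be induced without interferon by factors activated downstream of pattern recognition receptors. Ifit1 binds RNA whose cap lacks ribose methylation and keeps it from being translated, Ifit1 and Ifit2 bind subunits of the initiation factor eIF3, and Ifit3 lacks such a defined RNA ligand and forms complexes with other IFIT proteins.

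The study examined how mechanical confinement changes the immune function of dendritic cells (DCs), with bulk RNA-seq of cells grown from mouse bone marrow for 10 days with granulocyte-macrophage colony-stimulating factor. The cells came from WT mice or from mice with a KO of cPLA2, the cytosolic phospholipase A2 encoded by Pla2g4a. The knockout is described as a conditional Pla2g4a allele crossed with Itgax-cre, which is active in cells that express CD11c. Donors were young adult mice of either sex, with littermates or age-matched mice as controls.

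Each of 6 groups held 3 libraries, 18 in all. Per the labels, nonconfined WT and KO cells received no treatment and were collected when the culture ended. The protocol text repeats the LPS step for each sample, so the treatment of every library rests on its label. Confined WT and KO cells were held under a ceiling at a height of 3 µm and, per the labels, collected 4 h later. LPS-treated cells, with libraries labelled WT and KO, received 100 ng/ml LPS for 30 minutes, per the labels, and were collected the next day after a wash. The study's methods give a slightly shorter exposure, and the labels were used here. No matching wait or handling is described for nonconfined cells, so confinement cannot be told apart from time and handling. Confined and LPS-treated cells differ in time as well. Samples are described as biological replicates, but the labels do not say whether they were separate cultures or mice, so the p-values below describe only the spread between these libraries.

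Values are normalized counts, that is, read counts per gene divided by a size factor per library. Recovered reads on genes were 45020354, 39851237 and 34689393 in the nonconfined WT libraries and 45021696, 37116045 and 36034820 in the nonconfined KO libraries. They were 42049558, 45769637 and 33592725 in the confined WT libraries and 33672070, 33027230 and 39400286 in the confined KO libraries. LPS libraries labelled WT held 61300021, 52482280 and 52116837 reads, and those labelled KO held 45160523, 43169041 and 39609637. IFIT genes were well covered at this depth, with the lowest value of any member in any library at 172 normalized counts, for Ifit3b in confined KO replicate 2.

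The genotype labels were checked with Pla2g4a. Its counts were 697, 686 and 770.4 in nonconfined WT cells against 548, 542 and 533 in nonconfined KO cells, and 1369, 1430 and 1321 in confined WT cells against 923, 871 and 919.5 in confined KO cells. KO libraries lay below WT libraries of the same treatment in both cases, while a gene-level count does not show which exons were lost. In the LPS groups, libraries labelled WT held 1005, 969 and 967 and libraries labelled KO 1065, 1032 and 1028, so that here the KO label carried the higher values.

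Other genes, chosen after their values were seen, set the LPS libraries apart as well. Ddx3y, on the Y chromosome, ranged from 874 to 1036 normalized counts in nonconfined and confined KO cells and from 0 to 3.05 in the corresponding WT cells. In LPS libraries labelled WT it was 1271, 0 and 662, and in those labelled KO 2.12, 1476 and 783. Acot1 was 478, 377 and 399.8 in nonconfined KO cells and at most 3.81 in nonconfined WT cells, but 54.9, 0.915 and 33.6 in LPS libraries labelled WT and 0, 49.2 and 40.7 in those labelled KO. The genotype labels of the LPS libraries are therefore not borne out by these genes. The LPS response of the IFIT genes is given both by label and with the labels pooled. Gene lists under LPS and comparisons of LPS with confinement are given by label only. Xist, the RNA of the inactive X chromosome, lay between 12153 and 19081 in nonconfined KO cells and between 27953 and 33681 in nonconfined WT cells. In confined cells the genotypes overlapped, at 16980, 24835 and 20600 in KO and 22734, 33482 and 29759 in WT libraries. Over the 6 LPS libraries Xist ranged from 16450 to 30960. Genotype cannot be told apart from the sex makeup of the cultures.

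The cell type label was checked with 6 DC markers, each of which was present in every group. Cd74, the invariant chain of MHC class II, averaged 240559 normalized counts in nonconfined WT cells and was the most abundant of them. Itgax, which encodes CD11c, averaged 6281 there, and Flt3 119. Markers of other cells were present too: S100a9, a neutrophil calcium-binding protein, averaged 113588 and Prg2, an eosinophil granule protein, 17276 in the same cells. Among macrophage markers Csf1r averaged 36764, Adgre1 6732 and C1qa 389 there, so the markers do not set these cells apart from macrophages. The methods describe a selection by adhesion, in which loosely attached cells were kept as DCs while floating granulocytes and firmly attached macrophages were left behind, and state that most cells of such cultures carry CD11c. How complete it was in these libraries was not tested. These are bulk samples, in which fewer cells of a type and less RNA per cell cannot be told apart.

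In untreated cells the family was already expressed. Summed over the 6 members, normalized counts were 6960, 7002 and 7065 in nonconfined WT libraries and 8339, 7885 and 7824 in nonconfined KO libraries. Per kilobase of merged exons, the level in nonconfined WT cells was highest for Ifit3, at 557 ± 17.4 normalized counts per kilobase (SD, n = 3), followed by Ifit2 at 474 ± 11.1 and Ifit1 at 241 ± 6.41. Ifit3b stood at 152 ± 4.52, Ifit1bl1 at 100.2 ± 1.40 and Ifit1bl2 at 78.4 ± 9.09 on the same scale. No 2 neighbours in this order overlapped in their libraries. In nonconfined KO cells Ifit1bl2, at 143 ± 1.66 per kilobase, stood above Ifit1bl1, at 90.2 ± 9.37, and the order was otherwise as in WT cells.

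The order of the leading members depends on the length used. With the longest transcript as length, Ifit2 stood first in nonconfined WT cells, at 571 ± 13.3 per kilobase, and overlapped with Ifit3, at 558 ± 17.5. In nonconfined KO cells they stood at 602 ± 7.27 and 589 ± 19.4, again with overlap. The annotated Ifit1 transcript reaches beyond the span of the table's entry for Ifit1. With only the exon bases inside that span, 2648 in place of 7421, Ifit1 came to 676 per kilobase in nonconfined WT cells, with libraries from 660.5 to 696, and led the family in each of the 6 groups. This length was chosen after the data had been seen.

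**Figure D1:**
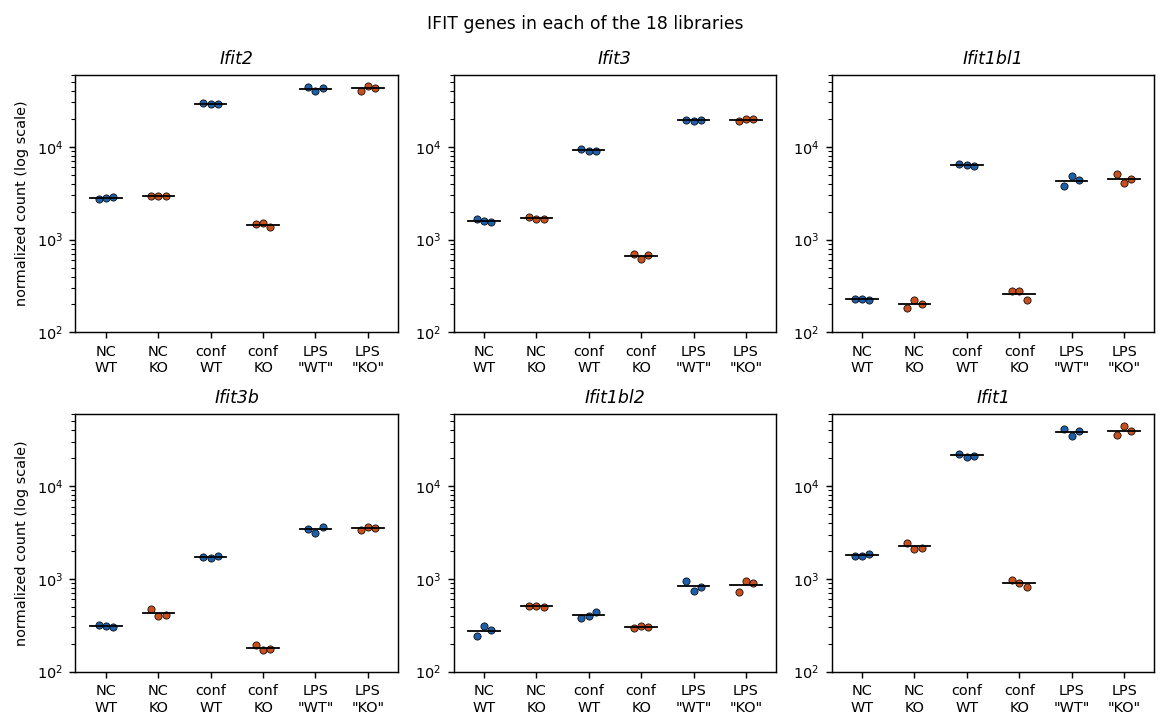
Normalized counts of the 6 IFIT genes on a log scale, with a point for each of the 18 libraries and a line at each group's mean; NC, nonconfined; conf, confined; quotation marks stand by LPS labels that Pla2g4a does not bear out. Confined WT and LPS-treated cells stand above nonconfined cells of the same label for each member, and confined KO cells stand below nonconfined KO cells for each member except Ifit1bl1, whose libraries lie close together there.

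Confinement of WT cells raised 5 of the 6 IFIT genes, where 11.4% of the 17875 genes tested were called higher. A call here and below required an adjusted p under 0.05 in limma and an absolute log2 fold change above 1. Ifit1bl1, a paralog of Ifit1, had the largest increase of the 6, at 28.2-fold between group means. Ifit1, which binds incompletely capped RNA, rose 11.9-fold and Ifit2 10.4-fold, while Ifit3 and Ifit3b rose 5.71-fold and 5.56-fold. Summed over the family, confined WT libraries held 70194, 66876 and 67158 normalized counts.

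Ifit1 went from 1781, 1749 and 1843 normalized counts in nonconfined WT libraries to 22292, 20656 and 21168 in confined WT libraries. Ifit2 stood at 2732, 2809 and 2863 before and at 29878, 28682 and 28562 after confinement. For both genes each confined library lay far above each nonconfined library. Ifit3 was 1657, 1598 and 1557 in nonconfined and 9363, 9022 and 9085 in confined WT cells. Ifit1bl1 was 229, 227 and 223 in nonconfined and 6554, 6425 and 6156 in confined WT cells. Again the groups did not overlap, which held for 6 of 6 members and for 31.6% of all genes tested in this direction. Ifit3b ranged from 299.7 to 318 in nonconfined and from 1694 to 1742 in confined WT libraries.

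On the log2 scale the difference was 4.81 for Ifit1bl1 (SE 0.10, adjusted p = 4.27e-20), 3.58 for Ifit1 (SE 0.08, adjusted p = 2.47e-19) and 3.37 for Ifit2 (SE 0.05, adjusted p = 1.63e-22). For Ifit3 it was 2.51 (SE 0.05, adjusted p = 1.64e-20) and for Ifit3b 2.47 (SE 0.07, adjusted p = 3.16e-17). Ifit1bl2 was 243, 307 and 280.1 in nonconfined and 378, 397 and 444 in confined WT libraries. Its log2 difference of 0.56 (SE 0.11, adjusted p = 1.64e-04) stayed under the fold limit, although the 3 confined libraries lay above the 3 nonconfined ones. Giving every library an equal sum of counts shifted the median difference over all genes by -0.22, and the share of called genes that were higher went from 59.9% to 43.0%. There were 5 IFIT calls under that scaling too.

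The ligands, receptors and factors that drive IFIT genes were examined as lists. Of 20 type I and III interferon ligands, 1 could be tested, Ifnb1, which encodes interferon beta, and 10 had no count in any library. Ifnb1 stood at 3.05, 5.12 and 5.90 normalized counts in nonconfined WT libraries and at 105, 92.6 and 103 in confined WT libraries. Its log2 increase was 4.19 (SE 0.42, adjusted p = 2.30e-08). It passed the filter on low values only through groups where it was high, and the size depends on the pseudocount of 1. Neither the size nor the call is therefore read as a result. Of 6 interferon receptor genes 1 rose, where 11.4% of all genes tested did: Ifnar1, a subunit of the type I receptor, by 1.08. Of 11 interferon signalling and transcription factors, 4 rose: the kinase Jak2 (1.31), Stat2 (1.26), Irf1 (1.07) and Irf7 (1.31). Irf9 had a log2 difference of 0.37. The median of these lists was 0.58 for receptors and 0.37 for signalling and factors, against -0.01 over all genes tested.

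Other interferon-stimulated effectors rose alongside the IFIT genes in confined WT cells. Of 24, 15 were called higher, with a list median of 1.23 against 2.94 for the IFIT family. Cxcl10, a chemokine for T cells, rose by 6.63 and Isg15, a ubiquitin-like modifier, by 2.89, while Bst2, which tethers virions to the cell surface, had a log2 difference of 0.03. Of 16 genes for nucleic acid and LPS sensing, 4 rose (list median 0.54), among them the LPS co-receptor Cd14 by 6.11, the RNA sensor Ifih1 by 2.05 and the kinase Ikbke by 1.74. Of 6 negative regulators, 2 rose (median 0.92), Socs3, which inhibits JAK kinases, by 3.27 and the DNA exonuclease Trex1 by 1.39. Ptpn6, a phosphatase, had a difference of -0.72.

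Genes for molecular partners of IFIT proteins were examined too. Of 5 cap methylation enzymes, which build the cap that Ifit1 distinguishes by its ribose methylation, 1 rose, against 11.4% of all genes tested. It was Cmtr1, which methylates the ribose of the cap, by 1.60 in an entry that it shares with Rnf8 and Gm28043. Cmtr1 had a difference of 0.21 in KO cells, an interaction of -1.38 and an LPS response of 1.46 under the WT label, the interaction and the LPS response being called. The list median was 0.29, with 0.29 for the guanine methyltransferase Rnmt and 0.05 for its activator Ramac. None of 14 genes for eIF3 subunits and eIF4E was called by limma, edgeR or DESeq2, with 2 higher and 7 lower at an unadjusted p under 0.05, where 30.0% of all genes tested were higher and 30.5% lower, and a median of -0.16. Eif3b, Eif3f and Eif3d had log2 differences of -0.31, -0.09 and 0.06.

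Markers of other cell types also moved with confinement of WT cells, where 7.62% of all genes tested were called lower. Of 4 eosinophil markers, 3 fell (median -2.17), and their summed level went from 28181, 27896 and 27812 normalized counts to 7418, 6941 and 6883, with Prg2 the most abundant. Siglecf, the other marker, averaged 1402 before and 1447 after. Of 5 mast cell and basophil markers, 4 fell (median -1.64), from a sum of 8637, 8613 and 8815 to 3364, 3231 and 3339, with Cpa3 the most abundant. Of 8 neutrophil markers, 4 fell (median -0.85), from 238752, 243828 and 242192 to 154013, 146804 and 144581, with S100a9 the most abundant. Of 5 lymphocyte markers, 4 were tested and 4 fell (median -1.42), and the sum went from 2438, 2406 and 2417 to 759, 791 and 692. Cd3g, at a mean of 2306 in nonconfined WT cells, made up most of that sum. Cd3e, Cd79a and Nkg7 averaged 22.7, 11.4 and 79.9 there, so the sum follows Cd3g and does not measure lymphocyte content. Ncr1, which marks natural killer cells, was at 0 in confined WT libraries but averaged only 0.655 in nonconfined WT libraries, so that its 0 shows no fall.

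DC markers summed to 426036, 401301 and 406460 in nonconfined and to 375007, 347498 and 358712 in confined WT libraries, with 1 of 6, Flt3, called lower and a median of -0.29. Of 7 macrophage markers none was called by limma, edgeR or DESeq2, with 3 lower and 0 higher at an unadjusted p under 0.05, and the median was -0.15. Their sum was 54967, 53236 and 53727 before and 52652, 51461 and 52088 after confinement, with the receptor Csf1r the most abundant. Of 6 plasmacytoid DC markers, 5 were tested, and Tcf4 rose by 1.37 while Spib fell (median -0.94). Siglech, which defines plasmacytoid DCs, averaged 7.90 in nonconfined and 3.01 in confined WT cells. The part of these shifts in the rise of the IFIT genes was not tested.

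In KO cells confinement went the other way, with 4 of the 6 IFIT genes lower against 5.53% of all genes tested. Ifit3 fell 2.56-fold, Ifit1 2.49-fold, Ifit3b 2.37-fold and Ifit2 2.04-fold. The family's summed counts were 3913, 3776 and 3566 in confined KO libraries, below the sums of the nonconfined KO libraries. Ifit1bl2 was 1.67-fold lower without reaching the fold limit, and Ifit1bl1 showed no fall.

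Ifit1 was 2464, 2111 and 2133 normalized counts in nonconfined KO libraries and 972, 912 and 812 in confined KO libraries. For Ifit2 the counts were 2953, 2983 and 2912 in nonconfined and 1478, 1491 and 1374 in confined KO cells. Each confined library of both genes lay below each nonconfined one. Ifit3 stood at 1757, 1652 and 1672 against 696, 611 and 679.8, and Ifit3b at 474, 402 and 408 against 195, 172 and 174. Those groups did not overlap either. Each confined library lay below each nonconfined one for 5 of 6 members and for 27.9% of all genes tested. Ifit1bl1, at 184, 226 and 201 in nonconfined and 276, 278 and 225 in confined KO libraries, was the member whose libraries overlapped.

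Log2 differences in KO cells were -1.36 for Ifit3 (SE 0.05, adjusted p = 2.94e-15), -1.31 for Ifit1 (SE 0.08, adjusted p = 1.72e-11) and -1.24 for Ifit3b (SE 0.07, adjusted p = 1.20e-11). Ifit2 had -1.03 (SE 0.05, adjusted p = 3.40e-13), close to the fold limit, and -0.99 without confined KO replicate 3. Values for the others were -0.74 for Ifit1bl2 (SE 0.11, adjusted p = 1.01e-05) and 0.35 for Ifit1bl1 (SE 0.10, adjusted p = 0.00557).

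Ifnb1 was low in KO cells, with 0, 1.86 and 3.88 normalized counts in nonconfined and 11.9, 6.40 and 6.38 in confined KO libraries. It passed the filter on low values only through the confined WT and LPS groups. Its log2 difference of 1.88 in KO cells (SE 0.42, adjusted p = 9.04e-04) depends on the pseudocount of 1. Neither the size nor the call of that difference is read as a result. Of the other interferon-stimulated effectors, 14 of 24 fell and 10 were not called, with a median of -1.25 beside -1.13 for the family and 0.01 for all genes tested. Isg15 fell by 1.14, whereas Cxcl10 had a difference of 0.60. Among the signalling and transcription factors, 1 of 11 fell, Irf7 by 1.29. Irf9, a DNA-binding partner of Stat2, had -0.97. Of the sensing genes, 1 of 16 rose, Cd14 by 3.05, a share close to the 6.43% of all genes tested that were called higher, and 3 fell.

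Cell type markers shifted in KO cells as well. Eosinophil markers summed to 67608, 63231 and 65185 in nonconfined and 16396, 15911 and 16836 in confined KO libraries, with 3 of 4 lower. Siglecf, the other marker, averaged 943 before and 1103 after. Mast cell and basophil markers went from 13332, 12637 and 12794 to 5927, 5697 and 5948, with 4 of 5 lower. Neutrophil markers were 369490, 332192 and 357354 before and 333025, 346015 and 329985 after, with 1 of 8 lower, the peroxidase gene Mpo. DC markers went from 507145, 476120 and 495628 to 353316, 339877 and 352551 (median -0.54), with Cd74 the most abundant and 1 of 6, Flt3, called lower. Of 7 macrophage markers 2 fell, Fcgr1 and C1qa (median -0.35). Of 5 plasmacytoid DC markers tested, Siglech and Spib were called lower (median -0.95). Siglech averaged 23.7 before and 4.92 after, near the floor, so its call is not read as a fall. Of 4 lymphocyte markers tested 3 were called lower, Cd3e, Cd3g and Nkg7 (median -1.30). Cd3e averaged 24.8 before and 8.19 after, also near the floor. Lymphocyte markers summed to 3144, 2837 and 3068 before and 1043, 1224 and 1074 after, and macrophage markers to 56942, 61474 and 59164 before and 57806, 52821 and 55982 after. For plasmacytoid DC markers the sums were 375, 443 and 473 before and 332, 363 and 355 after. The part of these shifts in the fall of the IFIT genes was not tested.

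The difference between genotypes in the response to confinement was tested directly, as an interaction. It was negative for 6 of the 6 IFIT genes, so that the response was lower in KO cells, where 6.56% of all genes tested were called in that direction. The difference between the responses was largest among members for Ifit1, at -4.89 (SE 0.11, adjusted p = 2.03e-18), which joins a response of 3.58 in WT cells to -1.31 in KO cells. It was -4.46 for Ifit1bl1 (SE 0.14, adjusted p = 1.79e-16), -4.40 for Ifit2 (SE 0.07, adjusted p = 6.01e-21) and -3.87 for Ifit3 (SE 0.07, adjusted p = 3.12e-20). Ifit3b had -3.71 (SE 0.10, adjusted p = 3.34e-17) and Ifit1bl2 -1.29 (SE 0.15, adjusted p = 1.13e-06).

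Ifit1bl2 passed this test without being called in either genotype, since its difference of 0.56 in WT cells and of -0.74 in KO cells had opposite signs. Scaling to equal sums shifted the median of all genes by 0.19 in this test and the share of called genes with a higher response in KO cells from 14.4% to 33.6%, and the 6 IFIT calls held.

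Of the other interferon-stimulated effectors, 22 of 24 had a lower response in KO cells (median -2.66, against -4.13 for the IFIT family and 0.05 for all genes tested). Ifnb1 had -2.30 (SE 0.59, adjusted p = 0.00594). The KO part of that value rests on very low counts and on the pseudocount of 1, so neither its size nor its call is read as a result. Of 11 signalling and transcription factors, 5 were called in the same direction: Irf7 (-2.60), Stat2 (-1.76), Irf1 (-1.57), Irf9 (-1.35) and Jak2 (-1.27). Genes for eIF3 and eIF4E held no call in limma, edgeR or DESeq2 among 14, with 2 higher and 3 lower at an unadjusted p under 0.05, against 16.5% and 19.4% of all genes tested.

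Among cell type markers, 2 of 8 neutrophil markers, Elane and Mpo, had a higher response in KO cells (median 0.69), as did 1.11% of all genes tested, and S100a9, the most abundant, had 0.71 (SE 0.07, adjusted p = 1.48e-07). The macrophage marker Fcgr1 and the plasmacytoid DC marker Tcf4 were called lower. Their part in the IFIT interaction was not tested.

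**Figure D2:**
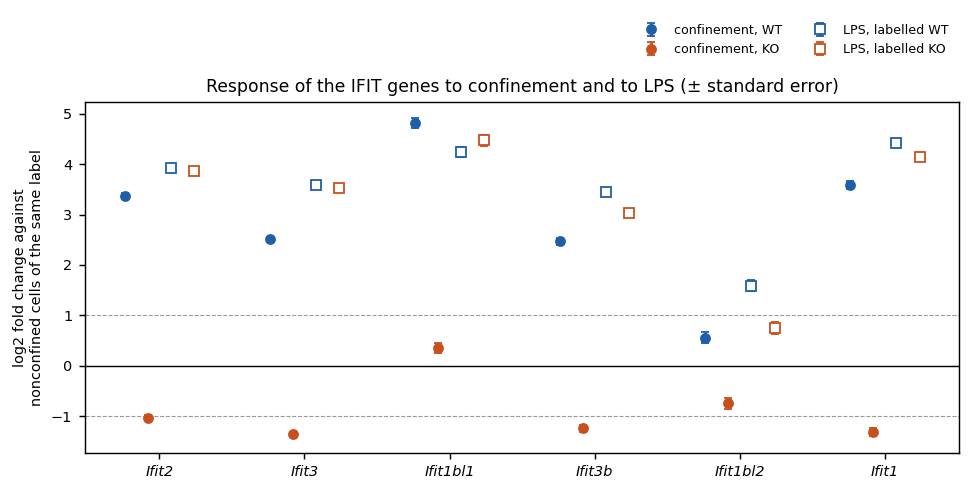
Log2 fold change of each IFIT gene against nonconfined cells of the same label, with standard errors from limma; filled circles stand for confinement, open squares for LPS, and dashed lines for the fold limit. Confinement responses of WT cells lie at or above 2.47 for 5 genes, while those of KO cells lie between -1.36 and 0.35, and the LPS responses under the WT and KO labels are farthest apart for Ifit1bl2, at 1.59 and 0.75.

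Before any treatment, IFIT genes of KO and WT cells differed by at most 1.82-fold. Each KO library lay above each WT library for 4 of 6 members and for 14.8% of all genes tested. Ifit2 in nonconfined KO libraries, between 2912 and 2983 normalized counts, lay within 1.05-fold of WT cells by group mean, and Ifit3 within 1.06-fold. Ifit1bl2 stood higher in KO cells, at 506, 509 and 498 against 243, 307 and 280.1 in WT cells, a ratio of 1.82. Ratios of Ifit3b and Ifit1 were 1.38 and 1.25.

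None of the 6 members was called in nonconfined cells by limma, edgeR or DESeq2, where 0.850% of genes tested were called higher in KO cells and 0.302% lower. At an unadjusted p under 0.05, 3 were higher in KO cells and 0 lower, against 11.3% and 11.1% of all genes tested. These were Ifit1bl2, with a log2 difference of 0.87 (SE 0.11, adjusted p = 3.53e-05), Ifit3b with 0.46 (SE 0.07, adjusted p = 4.24e-04) and Ifit1 with 0.32 (SE 0.08, adjusted p = 0.0157). In the same comparison, 3 of 4 eosinophil markers were higher in KO cells, with sums of 28181, 27896 and 27812 in WT and 67608, 63231 and 65185 in KO libraries. The other marker, Siglecf, averaged 1402 in WT and 943 in KO cells. Neutrophil markers summed to 238752, 243828 and 242192 in WT and 369490, 332192 and 357354 in KO libraries, with 1 of 8, Ly6g, called higher and 6 higher at an unadjusted p under 0.05 (median 0.46). Ltf, which encodes lactoferrin, was 1.92-fold higher without reaching the fold limit. Mast cell and basophil markers summed to 8637, 8613 and 8815 in WT and 13332, 12637 and 12794 in KO libraries, with 4 of 5 higher at an unadjusted p under 0.05 (median 0.54) and none called by limma, edgeR or DESeq2. For DC markers the sums were 426036, 401301 and 406460 against 507145, 476120 and 495628, with none of 6 called by limma, edgeR or DESeq2 and 4 higher and 1 lower at an unadjusted p under 0.05. The part of these markers in the values of the IFIT genes was not tested.

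After confinement the genotypes were far apart. In confined KO cells, 5 of 6 IFIT genes were lower than in confined WT cells, against 7.31% of all genes tested. Each KO library lay below each WT library for 6 of 6 members and for 24.8% of all genes tested. By group means Ifit1bl1 was 24.5-fold, Ifit1 23.8-fold and Ifit2 20.1-fold lower, Ifit3 13.8-fold and Ifit3b 9.55-fold. Counts of 22292, 20656 and 21168 for Ifit1 in WT cells stood against 972, 912 and 812 in KO cells.

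On the log2 scale Ifit1bl1 differed by -4.62 (SE 0.10, adjusted p = 9.84e-20), Ifit1 by -4.57 (SE 0.08, adjusted p = 5.04e-21), Ifit2 by -4.33 (SE 0.05, adjusted p = 9.19e-24), Ifit3 by -3.79 (SE 0.05, adjusted p = 4.36e-23) and Ifit3b by -3.25 (SE 0.07, adjusted p = 3.47e-19). Ifit1bl2 was 295, 312 and 301 in confined KO libraries against 378, 397 and 444 in confined WT libraries. Its difference of -0.42 (SE 0.11, adjusted p = 0.00380) was under the fold limit. Scaling to equal sums shifted the median of all genes by 0.15 and the share of called genes that were higher in KO cells from 27.6% to 41.2%, with the same number of IFIT calls.

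Among other interferon-stimulated effectors, 22 of 24 were lower in confined KO cells (median -2.75, beside -4.06 for the IFIT family). Ifnb1 differed by -3.51 (SE 0.42, adjusted p = 6.85e-07). Given its very low KO counts and the way it passed the filter, neither the size nor the call is read as a result. Neutrophil markers were higher in confined KO cells for 6 of 8 (sums of 333025, 346015 and 329985 against 154013, 146804 and 144581), eosinophil markers for 3 of 4 and mast cell and basophil markers for 3 of 5, against 2.79% of all genes tested. Siglecf, the other eosinophil marker, averaged 1103 in confined KO and 1447 in confined WT cells. Fcgr1 and Tcf4 were called lower. Of 4 lymphocyte markers tested 1, Cd79a, was called higher, by 2.32 (SE 0.48, adjusted p = 5.50e-04), with means of 24.6 in KO and 4.08 in WT libraries. DC markers were similar, at 353316, 339877 and 352551 in KO and 375007, 347498 and 358712 in WT libraries. The part of these markers in the IFIT difference was not tested.

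LPS, a bacterial ligand of Tlr4, raised IFIT genes. With the LPS labels pooled, 6 libraries against the 6 nonconfined libraries of both genotypes, 6 of 6 IFIT genes rose, where 15.6% of all genes tested were called higher. Ifit1bl1 rose by 4.35 on the log2 scale (SE 0.07, adjusted p = 9.54e-23), Ifit1 by 4.28 (SE 0.06, adjusted p = 4.65e-24) and Ifit2 by 3.89 (SE 0.03, adjusted p = 6.27e-27). Ifit3 rose by 3.56 (SE 0.03), Ifit3b by 3.25 (SE 0.05) and Ifit1bl2 by 1.17 (SE 0.08, adjusted p = 8.60e-12). The value of Ifit1bl2 lay close to the fold limit. Scaling to equal sums shifted the medians of the LPS comparisons by label by -0.50 and -0.47, and no fit with that scaling is given for the pooled labels.

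In LPS libraries labelled WT, Ifit1 was 41573, 34870 and 39084 normalized counts, and in those labelled KO 35161, 43878 and 39232. Ifit2 was 44113, 40259 and 42891 under the WT label and 39831, 45459 and 43136 under the KO label. All of these lay above each nonconfined and confined library, and the labels overlapped. Ifit3 ranged from 19101 to 20010 and Ifit3b from 3154 to 3660 over the 6 LPS libraries. Ifit1bl1 was 3772, 4807 and 4353 under the WT label and 5066, 4109 and 4440 under the KO label. Ifit1bl2 was 947, 743 and 815 under the WT label and 721, 954 and 892 under the KO label. Ifit1, Ifit2 and Ifit1bl2 were highest in the libraries where Ddx3y was 1271 and 1476 and lowest where it was 0 and 2.12. Ifit3 and Ifit3b were lowest in those same latter libraries, while Ifit1bl1 ran the other way. Eosinophil marker sums were 39730 and 39326 in the former and 23288 and 23085 in the latter. The cause of this split was not tested.

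By label, 6 of 6 IFIT genes rose under the WT label and 5 of 6 under the KO label, where 15.0% of all genes tested were called higher in each case. Ifit1 rose by 4.42 (SE 0.08, adjusted p = 2.73e-21) and 4.14 (SE 0.08, adjusted p = 8.66e-21), and Ifit2 by 3.92 and 3.86 (SE 0.05 each). Ifit1bl2 rose by 1.59 under the WT label (SE 0.11, adjusted p = 2.95e-11) and had a difference of 0.75 under the KO label (SE 0.11, adjusted p = 3.27e-06). Each label was compared with nonconfined cells of its own label, and confinement and LPS share those nonconfined libraries. Scaling to equal sums shifted the median of all genes by -0.50 under the WT label and -0.47 under the KO label, with the share of called genes that were higher at 28.1% in place of 55.0% and 28.2% in place of 53.9%. The IFIT calls were as many under that scaling.

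The genotype dependence of the LPS response was not called for any member by limma, edgeR or DESeq2, where 0.0336% of all genes tested had a higher response under the KO label and 0.241% a lower one. At an unadjusted p under 0.05, 3 of 6 were lower and 0 higher, against 1252 and 980 of the 17875 genes tested. Ifit1bl2 had a difference between responses of -0.84 (SE 0.15, adjusted p = 0.00579), Ifit3b of -0.41 (SE 0.10, adjusted p = 0.0519) and Ifit1 of -0.29 (SE 0.11, adjusted p = 0.278). In nonconfined cells these genes were higher in KO cells, by 0.87, 0.46 and 0.32. LPS libraries differed by 0.03, 0.05 and 0.03 between the labels. The differences between responses thus lie mostly between the nonconfined groups that serve as reference. Direct comparison of LPS libraries labelled KO with those labelled WT gave no call for any of 6 IFIT genes in limma, edgeR or DESeq2 and none at an unadjusted p under 0.05, where 1.99% of all genes tested were higher and 2.99% lower, with differences between 0.01 for Ifit2 and 0.08 for Ifit1bl1. For that comparison 0% of all genes tested were called higher and 0% lower. These tests rest on labels that Pla2g4a does not bear out.

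Interferon genes around the family rose with LPS as well. Ifnb1 stood between 134 and 167 normalized counts over the 6 LPS libraries. Under the WT label, 23 of 24 other interferon-stimulated effectors rose (median 2.51, beside 3.75 for the IFIT family and 0.03 for all genes tested), with Isg15 up by 4.10 and Bst2 by 1.15. Signalling and transcription factors rose for 6 of 11, among them Irf7 by 3.00, Irf8 by 2.13 and Irf9 by 1.05. Under the KO label the rise was called for 6 of 11 as well, with Tyk2, a kinase at the type I receptor, at 1.05 and Irf9 under the limit at 0.97. Of 14 eIF3 and eIF4E genes, limma, edgeR and DESeq2 called none under either label, with 4 higher and 6 lower at an unadjusted p under 0.05 in each. Over all genes tested these shares were 34.6% and 30.9% under the WT label and 34.7% and 31.6% under the KO label.

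Cell type markers moved with LPS too, where 12.3% of all genes tested were called lower under the WT label and 12.9% under the KO label. Lymphocyte markers summed to 514, 464 and 473 under the WT label and 421, 552 and 501 under the KO label, with Cd3e and Cd3g called lower among 4 tested under both. Cd3g, which made up most of those sums, had -2.51 and -2.81. Cd3e averaged only 22.7 in nonconfined WT and 24.8 in nonconfined KO cells. Of 5 plasmacytoid DC markers tested, Tcf4 rose and Siglech and Spib were called lower under both labels, and Siglech was at 0 under the WT label. Siglech averaged only 7.90 in nonconfined WT and 23.7 in nonconfined KO cells, its highest group. Its calls and its 0 rest on counts near the floor and are not read as a fall. Of 4 eosinophil markers, 3 fell under the KO label (median -1.12), and limma, edgeR and DESeq2 called none under the WT label, with 0 higher and 1 lower at an unadjusted p under 0.05 (median 0.16). Prg2 averaged 19668 under the KO label and 19712 under the WT label of LPS, against 39761 in nonconfined KO and 17276 in nonconfined WT cells. C1qa and Mpo fell under the KO label as well. The part of these shifts in the rise of the IFIT genes was not tested.

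Set against LPS, each confined WT library lay below each LPS library labelled WT for 5 of 6 IFIT genes, and above for 1. Over all genes tested these shares were 30.8% and 25.0%. Limma called 2 of the 6 lower, and both calls were lost with equal sums. Ifit3 was 9363, 9022 and 9085 in confined WT cells and 19547, 19101 and 19200 in LPS libraries labelled WT, a 2.11-fold difference. Ifit1 was 1.80-fold and Ifit2 1.46-fold lower in confined cells. Ifit1bl1 stood higher in confined cells, 6554, 6425 and 6156 against 3772, 4807 and 4353, a ratio of 1.48, with no overlap. It was the member that had its highest group mean under confinement.

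Markers of other cells differed in this comparison as well. Limma called 3 of 4 eosinophil markers (median -2.36), 4 of 5 mast cell and basophil markers (-1.72) and 5 of 8 neutrophil markers (-1.15) lower in confined cells, beside a median of -0.91 for the IFIT family and -0.02 for all genes tested. Neutrophil markers summed to 154013, 146804 and 144581 in confined WT libraries and 308802, 290063 and 292182 in LPS libraries labelled WT, with S100a9 the most abundant. Sums for eosinophil markers were 7418, 6941 and 6883 against 39730, 23288 and 31432, while Siglecf averaged 1447 against 950.1. DC markers summed to 375007, 347498 and 358712 against 587638, 496894 and 532431, with Cd74 the most abundant, a median of -0.61 and 2 of 6, Flt3 and Zbtb46, called lower. Of 5 plasmacytoid DC markers tested 1, Tcf4, was called lower, as was 1 of 4 lymphocyte markers tested, Cd79a, at low means of 4.08 against 14.9. The part of these markers in the IFIT differences was not tested.

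In this comparison limma called 2 of 6 members lower in confined cells, against 7.51% of all genes tested, edgeR 1 and DESeq2 2. They were Ifit3, with -1.07 (SE 0.05, adjusted p = 7.64e-14), and Ifit1bl2, with -1.03 (SE 0.11, adjusted p = 7.37e-08). For neither did the groups overlap, where 30.8% of all genes tested were apart in this direction. Differences for the others were -0.98 for Ifit3b (SE 0.07), -0.85 for Ifit1 (SE 0.08), -0.55 for Ifit2 (SE 0.05) and 0.57 for Ifit1bl1 (SE 0.10, adjusted p = 4.33e-05). Both calls were lost when libraries were scaled to equal sums, with -0.79 for Ifit3 and -0.75 for Ifit1bl2, and that scaling shifted the median of all genes by 0.28 and the share of called genes higher in confined cells from 45.7% to 68.1%. Ifit1bl2 was also not called with TMM scaling (-0.96), in edgeR (-0.97), without LPS replicate 1 of the WT label (-0.94) or without confined WT replicate 1 (-0.98), and Ifit3b was called without LPS replicate 2 of the WT label (-1.04). The signs of the 6 differences were the same in each of these settings. Confinement and LPS differed in time of collection.

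For KO cells, all 6 members were lower in confined than in LPS-treated cells of the same label, against 12.6% of all genes tested. Ifit1 differed most among members, by -5.45 (SE 0.08, adjusted p = 6.44e-23) or 43.9-fold, and Ifit1bl2 least, by -1.49 (SE 0.11, adjusted p = 1.22e-10) or 2.83-fold. Ifit3 and Ifit2 differed by 29.6-fold each, Ifit3b by 19.5-fold and Ifit1bl1 by 17.5-fold. Scaling to equal sums shifted the median of all genes by 0.44 and the share of called genes that were higher in confined cells from 45.3% to 71.6%, and 6 IFIT genes were still called lower. Among cell type markers, limma called Flt3, Zbtb46, Fcgr1, Tcf4 and Epx lower and Mrc1 and Cd3g higher in confined KO cells, where 10.4% of all genes tested were called higher, and their part in the IFIT differences was not tested.

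Members differed in how far they shared these changes, and the balance of the family moved with treatment. Per kilobase of merged exons, Ifit2 led in LPS-treated and confined WT cells, at 7184 ± 334 under the WT label of LPS and 4918 ± 123 after confinement (SD, n = 3). Ifit3 came next, at 6695 ± 81.3 and 3179 ± 63.1, and overlapped with Ifit2 under the KO label of LPS and in confined KO cells. Ifit1bl1 made up 19.1% ± 0.402 of the family's total per kilobase in confined WT cells, against 8.36% ± 1.27 and 8.64% ± 1.34 under the WT and KO labels of LPS and 6.25% ± 0.0762 in nonconfined WT cells. In confined WT cells Ifit1bl1, at 2822 ± 90.0 per kilobase, overlapped with Ifit1, at 2880 ± 113. Both statements depend on the length used for Ifit1: with only exon bases inside the table's span, Ifit1 came to 8071 ± 316 per kilobase in confined WT cells, with no overlap, and led the family in each group. The share of Ifit1bl1 was then 13.6% ± 0.333 in confined WT cells, 5.75% ± 0.966 and 5.94% ± 1.03 under the WT and KO labels of LPS and 4.73% ± 0.0821 in nonconfined WT cells.

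Ratios taken within a library do not depend on its scaling. Ifit1bl1 counts were 29.9% ± 1.09 of Ifit1 counts in confined WT libraries and 28.9% ± 1.46 in confined KO libraries, while they were between 9.20% and 12.7% as group means in the other 4 groups. The highest of the other libraries, at 14.4%, lay below the lowest confined library, at 27.7%. Both confined groups thus held more Ifit1bl1 relative to Ifit1, although Ifit1 itself was high in WT and low in KO cells.

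Ifit1bl2 counts were 15.5% ± 1.96 of Ifit1 in nonconfined WT, 1.91% ± 0.202 in confined WT and 2.16% ± 0.0997 in LPS libraries labelled WT. In nonconfined KO cells the ratio was 22.7% ± 1.88 and in confined KO cells 33.9% ± 3.39. For the near-identical pair, Ifit3b counts were 19.3% ± 0.184 of Ifit3 in nonconfined WT and 18.8% ± 0.359 in confined WT libraries, against 25.2% ± 1.51 and 27.3% ± 1.43 in nonconfined and confined KO libraries. Nonconfined and confined KO libraries, from 24.3% up, lay above the WT libraries of those treatments, at most 19.5%. In LPS libraries the ratio was 17.7% ± 1.29 under the WT label and 17.9% ± 0.167 under the KO label. These ratios compare counts and not lengths, and no test was run on them.

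Over the 18 libraries, which form the 6 groups and are not independent of them, log2 values of Ifit1, Ifit2, Ifit3 and Ifit3b followed each other with Pearson r from 0.990 to 0.998. Ifit1bl1 followed the other members except Ifit1bl2 with r from 0.924 to 0.963. Ifit1bl2 followed the other 5 least, with r from 0.644 for Ifit1bl1 to 0.847 for Ifit3b. These are descriptions with n = 18, driven by differences between groups.

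Outside the family, the 5 genes with the most similar pattern among those with a symbol that averaged 100 normalized counts or more, by mean r with Ifit1, Ifit2 and Ifit3 over the same 18 libraries, were Cmpk2 (0.997), Isg15 (0.996), Rnf114 (0.996), Gbp5 (0.995) and Rcl1 (0.995). Cmpk2, a mitochondrial nucleotide kinase, rose by 3.06 with confinement in WT cells and fell by 1.38 in KO cells. Gbp5, a guanylate-binding protein, rose by 3.00 and fell by 1.31. Rcl1, which takes part in ribosomal RNA processing, rose by 1.74 in WT cells and had a difference of -0.48 in KO cells. Rnf114, a ubiquitin ligase, had 0.88 and -0.29, under the fold limit in both genotypes.

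The 6 genes lie together on chromosome 19, in 111.7 kilobases at chr19:34528094-34639825 of GRCm39. In order of position their entries start with Ifit2 (GSMG0027633), Ifit3 (GSMG0027634), Ifit1bl1 (GSMG0028431), Ifit3b (GSMG0027635), Ifit1bl2 (GSMG0028432) and Ifit1 (GSMG0027637). Ifit1bl1 and Ifit1bl2 are on the minus strand and the other 4 on the plus strand. In the table, the span of Ifit1bl1 covers 69538 bases and contains the whole of Ifit3b, Ifit1bl2 and Ifit1, whereas the GENCODE annotation gives it 9066 bases. Ifit1bl2 has 23696 bases in the table and 45385 in GENCODE. Libraries were stranded, but the strand setting of the read counting is not stated, so how reads of Ifit1bl2, on the same strand, or of Ifit1 and Ifit3b, on the other, were assigned cannot be told from the values.

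**Figure D3:**
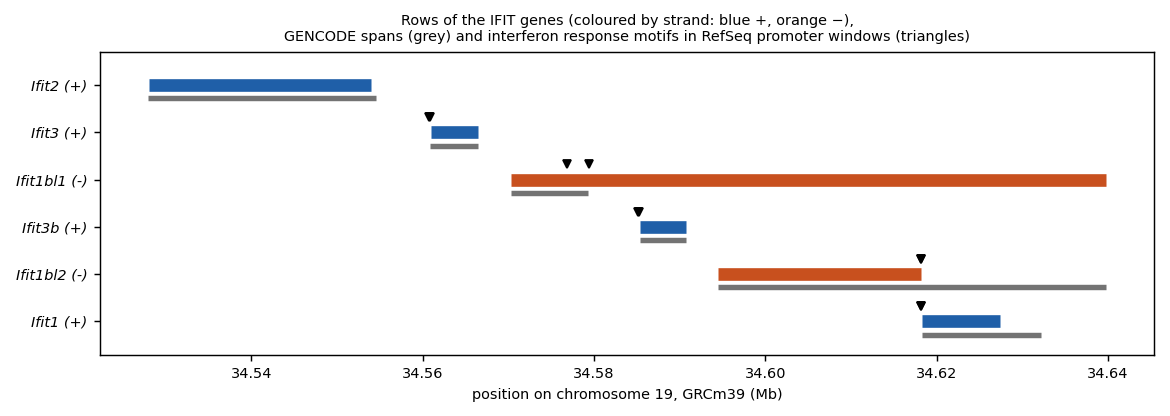
The IFIT cluster on chromosome 19, drawn to scale, with the span of each gene in the deposited table coloured by strand, the GENCODE span in grey, and triangles at interferon response motifs found in RefSeq promoter windows. The table's span of Ifit1bl1 runs across Ifit3b, Ifit1bl2 and Ifit1, and Ifit1 and Ifit1bl2 start back to back.

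Reads of 100 bases can fit more than 1 member where paralogs share sequence. Of all 100-base windows in its annotated transcripts, 27.2% of Ifit3b and 16.7% of Ifit3 occur without a mismatch in the other gene, and the coding sequences of this pair are 99.1% identical. For Ifit1bl2 2.77% of windows are shared with Ifit1 or Ifit1bl1, and 1.15% of Ifit1 and 0.510% of Ifit1bl1 are shared with Ifit1bl2, while Ifit2 shares 0. Coding sequences of Ifit1bl1 and Ifit1bl2 are 87.4% identical to each other, and each is 75.7% identical to Ifit1. Ifit2 is at most 60.1% identical to any other member, which is Ifit1bl1.

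Counts of Ifit3b can therefore hold reads of Ifit3 and the reverse, and the files do not show how such reads were treated. With paralogs summed, the log2 fold change of Ifit3 with Ifit3b under confinement in cPLA2 WT DCs was 2.51, and under confinement in cPLA2 KO DCs -1.33. With Ifit1, Ifit1bl1 and Ifit1bl2 as paralogs summed, it was 3.62 in WT and -1.01 in KO cells. Each sum was called where its leading member was.

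Promoters of 5 of the 6 members share a sequence feature. The motif GAAANNGAAA, the core of the interferon-stimulated response element that factors of the IRF family bind, was searched on both strands in windows from 250 bases before to 50 bases after RefSeq gene starts. All 6 members matched windows of that table, 9 in all, and 6 of these 9 (66.7%) hold the motif, against 3.44% of all 32851 windows. At least 2 motifs occur in 4 of the 9 windows and in 0.225% of all windows. The windows of Ifit1 and Ifit1bl2 overlap and hold the same pair of sites, read from opposite strands, so these sites count for both genes. In Ifit3 and Ifit3b the motif starts lie 34 bases apart, and in Ifit1 and Ifit1bl2 19 bases apart. Neither of the windows of Ifit2 holds these letters, although Ifit2 changed with Ifit1 and Ifit3. The GENCODE start of Ifit2, at 34527932, lies before its first RefSeq start, at 34528094. The first window begins at 34527844 and so covers little sequence before the GENCODE start. Sequence further upstream was not searched, so the windows do not show that Ifit2 lacks the motif. A match is a description and shows no binding.

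Stretches before a RefSeq start are shown for the members whose windows hold the motif. Capitals mark the motif, which reads TTTCNNTTTC on the strand shown. Sequences are from the RefSeq promoter windows, placed on GRCm39 by a unique exact match: chr19:34618144-34618270 on the plus strand between Ifit1bl2 and Ifit1, whose entries start 134 bases apart on opposite strands, chr19:34560729-34560898 on the plus strand for Ifit3, chr19:34585158-34585327 on the plus strand for Ifit3b, and chr19:34579369-34579538 on the minus strand for Ifit1bl1. The stretch of Ifit1bl2 lies inside its GENCODE span, which is longer than that in the table.
Ifit1 and Ifit1bl2: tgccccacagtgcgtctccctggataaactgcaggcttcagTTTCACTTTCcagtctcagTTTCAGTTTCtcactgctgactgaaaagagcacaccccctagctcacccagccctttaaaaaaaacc
Ifit3: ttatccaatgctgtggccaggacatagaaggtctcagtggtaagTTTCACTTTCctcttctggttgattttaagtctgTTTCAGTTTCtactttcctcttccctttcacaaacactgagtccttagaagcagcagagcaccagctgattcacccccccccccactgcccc
Ifit3b: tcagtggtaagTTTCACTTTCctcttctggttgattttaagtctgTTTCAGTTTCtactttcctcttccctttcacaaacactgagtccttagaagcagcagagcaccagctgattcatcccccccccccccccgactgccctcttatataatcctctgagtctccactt
Ifit1bl1: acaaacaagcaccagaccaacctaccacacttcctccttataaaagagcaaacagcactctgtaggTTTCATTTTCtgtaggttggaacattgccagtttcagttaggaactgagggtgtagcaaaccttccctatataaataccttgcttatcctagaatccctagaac

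Genes next to the cluster were examined for the same pattern. Of 10 protein-coding neighbours, 5 on each side, 9 could be tested and Slc16a12 could not. Ch25h, a cholesterol hydroxylase 75.53 kilobases from the cluster, was 472, 445 and 381 normalized counts in nonconfined and 1543, 1447 and 1414 in confined WT libraries, a rise of 1.76 (SE 0.10, adjusted p = 1.04e-12). The death receptor gene Fas, 222.9 kilobases away, was 919, 907 and 966 before and 3886, 3612 and 3494 after, a rise of 1.97 (SE 0.09, adjusted p = 3.87e-14). Confined libraries lay above nonconfined ones for both genes. In KO cells neither was called, with 0.51 and 0.56, and the interaction was -1.26 for Ch25h (adjusted p = 2.65e-07) and -1.42 for Fas (adjusted p = 1.20e-08). With LPS under the WT label, Ch25h rose by 3.36 and Fas by 2.38.

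The remaining neighbours differed among themselves. Lipa, a lysosomal lipase 5.931 kilobases from Ifit2, had a difference of 0.79 with confinement in WT cells and rose in KO cells, from a mean of 5283 normalized counts to 11348. Acta2, which encodes smooth muscle actin, had 0.85 in WT cells and rose by 1.16 in KO cells, and Stambpl1 had 0.19 and -0.12. Pank1 and Kif20b fell by 1.48 and 1.04 with confinement in WT cells and had -0.99 and -0.40 in KO cells. Htr7 had 0.11 and -0.77, with an interaction of -0.88 (SE 0.24) that stayed under the fold limit, and Rpp30 had -0.19 and -0.23. With LPS under the WT label Htr7 rose by 1.57 and Acta2 by 1.06, Pank1 and Kif20b fell by 1.15 and 1.55, and Lipa, Stambpl1 and Rpp30 had 0.33, 0.36 and -0.31.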

How the data were processed

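The signal values used were the normalized counts in the deposited table, which the authors made, per the submitters' processing notes, with STAR 2.7.5a, featureCounts 1.5.0, DESeq2 and R 3.5.3. Read counts were recovered from them with a size factor per library, and 100% of recovered values were whole numbers within 0.001. Recovered depth had a median of 40950397 reads per library and ran from 33027230 to 61300021. The tests kept 17875 genes, those that reached 10 normalized counts in 3 or more libraries. Log2 values, with a pseudocount of 1, were fitted in limma 3.58.1 with a mean per group over 18 libraries. Calls needed a Benjamini-Hochberg adjusted p below 0.05 together with a log2 fold change beyond 1 in either direction. Recovered reads were also tested in edgeR 4.0.16 and DESeq2 1.42.0, and all 3 tools were first run on simulated data. Alternatives changed the scaling, filter, pseudocount, thresholds and gene lengths or left out a library. The members and 16 gene lists were chosen with earlier results of these data known, and 2 genes of the planned lists are not reported here. Genes were named if they were members, among the 3 most abundant of a list, called in the interferon signalling list, neighbours, most similar in pattern or used to check labels, besides markers that define a cell type. A planned protein identity was replaced by coding-sequence identity, as no protein sequences were at hand.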

Additional observations from a re-analysis of the deposited data

Results flagged for a closer look

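These results were singled out by a rule applied to IFIT members, the 3 most abundant genes of each list, called interferon signalling genes, neighbours and genes of similar pattern, that the response of a gene differed between genotypes in the interaction test of limma. Genes used to check labels were left out of it. For the response to confinement the log2 difference between KO and WT cells was -4.89 for Ifit1, -4.40 for Ifit2, -3.87 for Ifit3 and -3.71 for Ifit3b. It was -4.46 for Ifit1bl1 and -1.29 for Ifit1bl2. For all 6 IFIT genes the response was thus lower in KO cells.

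The same rule named genes that act before the IFIT family. Differences were -2.30 for Ifnb1, whose counts in KO cells were too low for the size to be read, -1.27 for Jak2 and -1.76 for Stat2. Interferon regulatory factors had -1.35 for Irf9, -1.57 for Irf1 and -2.60 for Irf7. For the sensing genes they were -3.06 for Cd14, -2.89 for Ifih1 and -1.90 for Ikbke.

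Among effectors and regulators, Cxcl10 had -6.04, Isg15 -4.02, Socs3 -2.86 and Trex1 -2.44. Cmtr1 had -1.38 and Tcf4 -1.19. Of the genes most similar to the IFIT family, which were picked for their correlation with it over these same libraries, so that such a difference follows from the choice, Cmpk2 had -4.44, Gbp5 -4.32, Rcl1 -2.22 and Rnf114 -1.17. Of the neighbours, Fas had -1.42 and Ch25h -1.26. In the opposite direction, 2 of 8 neutrophil markers outside the rule, Elane and Mpo, had a higher response in KO cells. The cause of these differences was not tested.

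For the response to LPS, 49 of all genes tested were called, and the rule picked 3 of them, all eosinophil markers, and no IFIT gene. The difference was -1.21 for Prg2, -1.35 for Epx and -1.55 for Ear1. Nonconfined means in KO and WT cells were 39761 and 17276 for Prg2, 17646 and 7005 for Epx, and 6992 and 2279 for Ear1. LPS means under the KO and WT labels were 19668 and 19712, 7982 and 8074, and 2896 and 2748. These differences thus lie between the nonconfined groups that serve as reference, and not between the LPS groups. Acot1, a label check, had -7.89 and was called as well. The comparison rests on LPS labels that Pla2g4a does not bear out, and the cause was not tested.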

How the results depend on the processing

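Of 1305 alternative log2 fold changes of IFIT genes, 1277 kept both direction and call, whatever their size, 7 lost the call, 21 gained it and 0 reversed. Of 424 alternative counts of called members, 402 were equal to the first count, 9 differed by at most 1.5-fold and 13 moved by more or from or to 0. Most moves lay in the comparison of confined with LPS-treated WT cells, where 2 IFIT genes were first called lower. That count was 0 with equal sums, 1 with TMM scaling, 1 in edgeR, 4 with the thresholds of the study's methods and 5 with no limit on the fold change, and it ran from 1 to 3 when a library was left out. With no limit on the fold change 1 was higher there. The cause was not tested.

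With no limit on the fold change, 5 called members became 6 for confinement of WT cells, for the genotypes after confinement and for LPS under the KO label, and 4 became 5 for confinement of KO cells. With that setting 1 IFIT gene was higher with confinement of KO cells, 3 were higher in nonconfined KO cells and 1 had a lower LPS response under the KO label. The methods' thresholds gave 1 in each of the latter 2. Levels per length moved for Ifit1, from 2341 per kilobase over 18 libraries to 6560 with exon bases inside the table's span, a length chosen after seeing the data. For Ifit2 the level went from 3428 to 3929 with that length and to 4129 with the longest transcript. With windows of 50 bases, shared sequence was 2.53% for Ifit1, 31.5% for Ifit3, 47.8% for Ifit3b, 6.45% for Ifit1bl1 and 8.91% for Ifit1bl2. The cause was not tested.

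Calls over all genes moved by more than 1.5-fold in a few settings. For the genotype dependence of LPS, 49 genes became 83 in DESeq2, 20 with the compared groups alone and 27 to 118 with a library left out. In nonconfined cells 206 became 125 without WT replicate 2 or KO replicate 1. A filter of 100 normalized counts left 96 there, 1087 of 2139 for confinement of KO cells and 3181 of 4986 for LPS under the KO label. The cause was not tested.

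Replicates were not treated as paired in the main fit. Residual correlations of libraries with the same number were over 0.1 for 2 of 3 pairs between confined WT and KO cells, from 0.0402 to 0.338, for 2 of 3 pairs with confinement of WT cells, from -0.0638 to 0.183, and for 6 of 18 in the genotype dependence of confinement. In no comparison were all pairs over 0.1. Libraries matched best with their own number in 5 of 6 cases between confined WT and KO cells. This held in 21 of 36 for the genotype dependence of confinement and in 0 of 6 between the LPS labels. There, same-number pairs ran from -0.142 to -0.00489. WT replicate 1 with KO replicate 2 had 0.102, and WT replicate 2 with KO replicate 1 had 0.16. With the replicate number as a replicate block, 5 IFIT genes were higher with confinement in WT cells and 4 lower in KO cells, 5 were lower in confined KO than confined WT cells, 6 had a lower confinement response in KO cells, and 30 genes were called for the genotype dependence of LPS.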

Other observations

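Counts of Ifit2 relative to Ifit1 within a library followed a course of their own. They were 156% ± 3.71 of Ifit1 in nonconfined WT cells, 136% ± 2.57 in confined WT cells and 110.4% ± 4.71 in LPS libraries labelled WT, with no overlap between these groups (SD, n = 3). In KO cells they were 133% ± 11.3 without treatment and 162% ± 8.75 after confinement.

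The limits of these results are those of the design. Each group holds 3 libraries, and no matching wait or handling is described for nonconfined cells, so confinement cannot be told apart from time and handling. Genotype goes with the sex makeup of the cultures, and the LPS labels do not match Pla2g4a. Bulk RNA does not separate cell makeup from expression per cell, and these counts say nothing about IFIT proteins. Reads shared by Ifit3 and Ifit3b, and the long span of Ifit1bl1 in the table, limit what can be said of single members.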
